A study of Mus musculus with 10 samples.

Results

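The genes described here are 10 markers of mural cells, the cells that wrap the outside of vessels, read in RNA from sorted meningeal lymphatic endothelial cells (LECs). They are Acta2, Tagln, Myh11, Pdgfrb, Rgs5, Cspg4, Kcnj8, Abcc9, Notch3 and Des, chosen by symbol, and each matched 1 row of the 55401 genes in the deposited count table. Mural cells comprise smooth muscle cells and pericytes. Smooth muscle cells circle arteries, veins and collecting lymphatics and contract through smooth muscle actin and myosin, whereas pericytes sit on capillaries, where signaling through the platelet-derived growth factor receptor beta and Notch3 maintains them. Initial lymphatic capillaries are known to be largely bare of mural cover. Whether LECs themselves express these genes was not tested.

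All libraries came from the meninges of 3-month-old female wild-type mice, C57BL/6 by the labels and C57BL/6J by the study's methods. The Naive group (5 libraries) was not stressed, and the SCVS group (5 libraries) went through 6 days of sub-chronic variable stress, in which foot shock, tail suspension and restraint alternate. Each library pooled the meninges of 3 to 4 mice. In both groups the tissue was digested in the presence of actinomycin D, a blocker of transcription, and live cells were sorted as CD45- CD31+ podoplanin+. CD31 marks endothelium, podoplanin marks LECs within it, and the sort used no marker of mural cells. Such a gate selects against leukocytes, which carry CD45, and against fibroblasts and mural cells, which lack CD31.

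The total count lay between 10421467 and 13975282 in the naive libraries and between 9984743 and 14094155 in the SCVS libraries, so that 3 counts, the floor used here, correspond to 0.213 to 0.3005 CPM (counts per 1000000 counts of the library). This floor covers counting error only, because the amplified reads carry no molecular identifiers. The labelled cell type was checked with 9 lymphatic endothelial markers (Ccl21a, Flt4, Lyve1, Maf, Mmrn1, Pdpn, Prox1, Reln and Tbx1), which summed to 74.4 to 2929 CPM in naive and 470.6 to 3243 CPM in SCVS libraries. Several libraries stood apart in both groups. Naive replicate 1 had 0 counts of Prox1 and of Pdpn, 2 counts of Lyve1 and the lowest lymphatic sum, 74.4 CPM, beside a blood endothelial sum of 7854 CPM over 8 markers. Naive replicate 5 had the lowest blood endothelial sum, 312.8 CPM against 5219 to 10273 CPM in the other 9 libraries, and 1 count of Lyve1 beside 843 counts of Prox1. SCVS replicate 5 had 2 counts of Prox1 and 404 counts of Ptprc, which encodes CD45, and its 5 erythroid genes summed to 4863 CPM against at most 125.4 CPM elsewhere. SCVS replicate 4 had the highest myeloid sum, 4517 CPM over 9 markers against at most 928.1 CPM elsewhere. The results that follow are given with and without these libraries where they rest on them. In RNA from pooled cells, fewer cells of a type and less RNA per cell cannot be told apart.

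**Figure D1:**
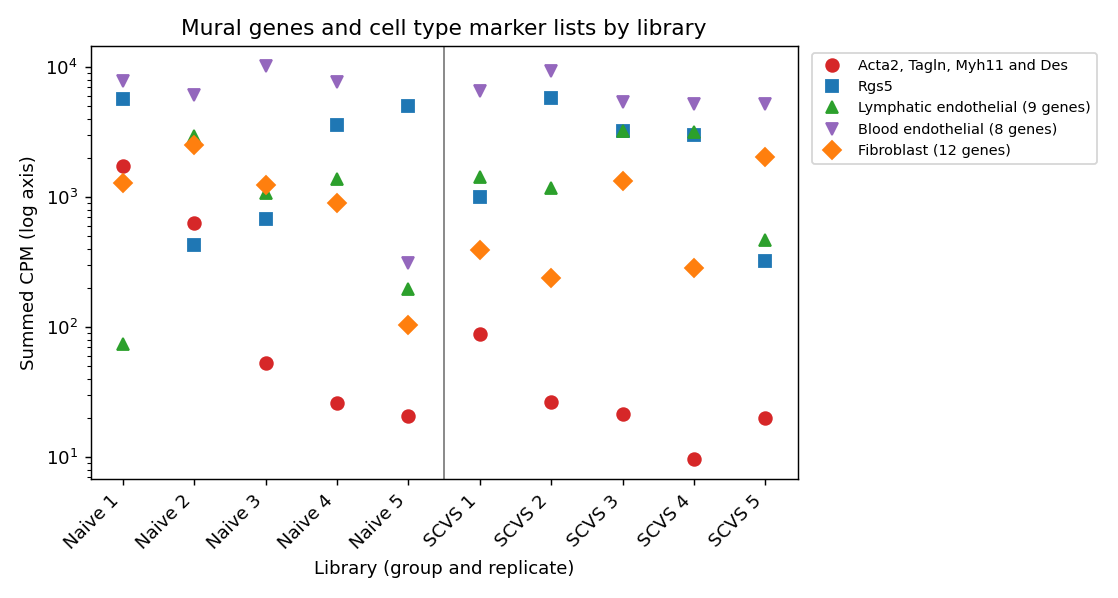
Summed CPM (log axis) of Acta2, Tagln, Myh11 and Des, of Rgs5 alone, and of 3 lists of cell type markers in each of the 10 libraries, 1 point per list and library. The contractile genes reach 1743 CPM in Naive replicate 1, where the lymphatic endothelial list is at its lowest, 74.4 CPM, and Naive replicate 5 keeps a high Rgs5 level while all 3 marker lists are low.

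Mural genes were detected in every library, but with very uneven levels. Between 2 and 10 of the 10 genes had more than 3 counts in a naive library and between 6 and 8 in an SCVS library. Rgs5 and Acta2 were above that floor in all 10 libraries. Naive replicate 2 held all 10 genes above it, and Naive replicate 5 held Rgs5 and Acta2 alone. The 10 genes summed to 823.5 to 7809 CPM in naive and 458.4 to 5939 CPM in SCVS libraries. Leaving Rgs5 aside, the other 9 summed to 20.8 to 2146 CPM (median 207.3) in naive libraries and to 83.2 to 145.2 CPM (median 127.3) in SCVS libraries. The SCVS libraries thus lay within the naive range, and the naive libraries spread both above and below them.

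**Figure D2:**
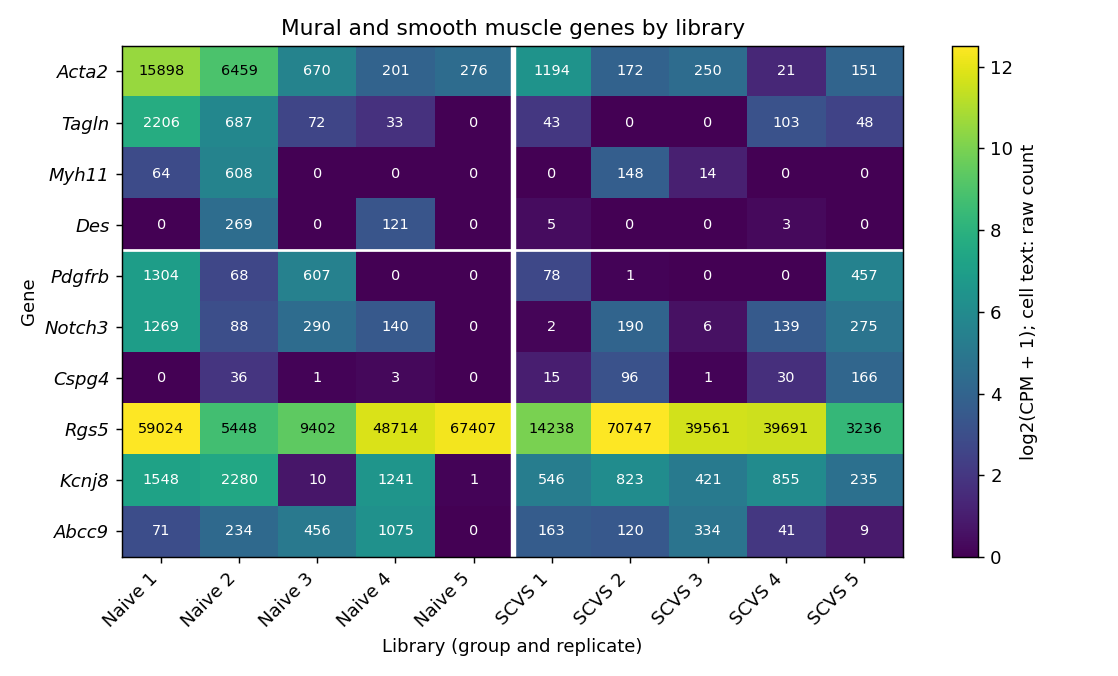
Level of each of the 10 genes in each library, shown as color on a scale of log2(CPM + 1), with the raw count written in each cell; the horizontal line separates Acta2, Tagln, Myh11 and Des from the other genes and the vertical line separates naive from SCVS libraries. Rgs5 fills a bright row in both groups, Naive replicates 1 and 2 hold most Acta2 and Tagln counts, and Naive replicate 5 has 0 or 1 count of 8 of the 10 genes.

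Levels of different genes were compared per length, as CPM per kb of annotated exon. In naive libraries the order by median was Rgs5 (789 CPM per kb), Kcnj8 (41.8), Acta2 (26.9), Tagln (3.25), Abcc9 (2.43), Notch3 (1.28), Pdgfrb (0.972) and Cspg4 (0.00889), with Myh11 and Des at a median of 0. In SCVS libraries Rgs5 (659 CPM per kb), Kcnj8 (17.7), Acta2 (8.49), Tagln (1.92), Abcc9 (1.31) and Notch3 (1.31) came in the same order and were followed by Cspg4 (0.282) and Pdgfrb (0.0150), again with Myh11 and Des at 0. Rgs5 ranged from 71.2 to 1278 CPM per kb over the SCVS libraries, above the range of every other member there, whereas in naive libraries Acta2 (8.31 to 857 CPM per kb) and Tagln (up to 133 CPM per kb) overlapped it. The ranges of all other neighbours in the order overlapped in both groups. Among the 32589 genes with a known exon length, Rgs5 ranked between 30 and 997 in each library.

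**Figure D3:**
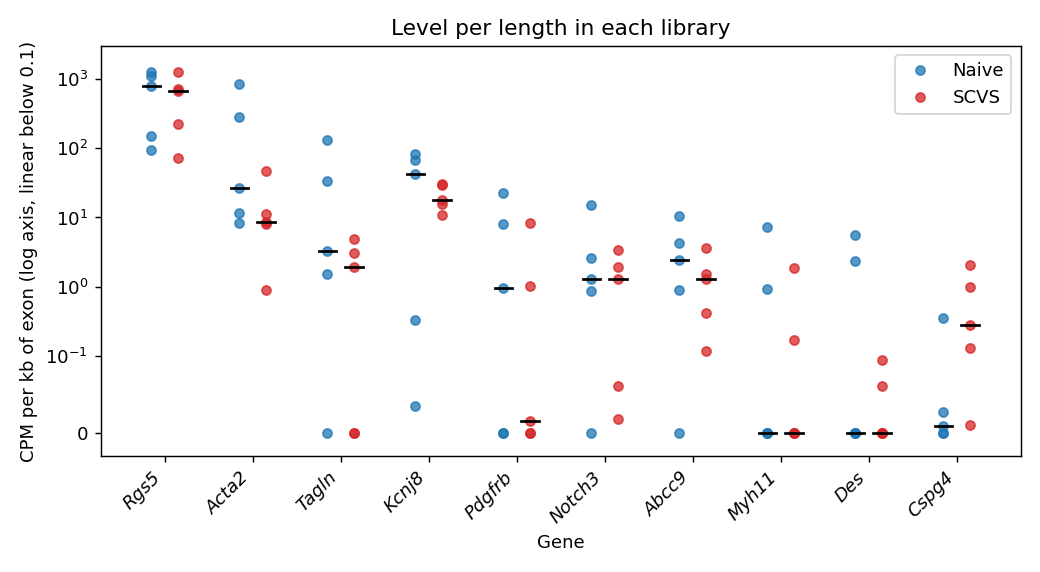
CPM per kb of exon (log axis, linear below 0.1) of the 10 genes, with 1 point per library, naive in blue and SCVS in red, and a bar at each group's median of 5 libraries. Rgs5 has the highest median in both groups, Acta2 spans 8.31 to 857 CPM per kb within the naive group, and the naive and SCVS points of every gene overlap.

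Between SCVS and naive mice, edgeR's quasi-likelihood test called none of the 9 testable members at an adjusted p of 0.1, and none of all 14815 tested genes (0.0% called). Des did not pass the filter on low counts. At an unadjusted p under 0.05, Acta2 alone of the 9 members passed, where 3.1% of all tested genes did and 1.17% did with a lower level in SCVS. DESeq2, the tool of the study, called 1 of the 9 members, Acta2, where it called 0.769% of all tested genes and 0.27% as lower in SCVS. The log2 fold change was below 0 for 8 of the 9 members (Cspg4 was the exception), as it was for 51.8% of all tested genes, and its median was −1.65 over the members and −0.03 over all tested genes. Without Naive replicate 1 the median of the members was −0.57 with 6 of 9 below 0, and without Naive replicate 5 it was −1.96 with 8 of 9 below 0. It was −1.48 without SCVS replicate 4 and −1.81 without SCVS replicate 5, with 8 of 9 below 0 in both. In limma with voom the median of the members was −0.81 with 6 of 9 below 0, and that over all tested genes was 0.10. With the replicate number as a block in edgeR these medians were −0.90, with 7 of 9 below 0, and 0.07. Without Naive replicate 1, 0 of the 9 members had an unadjusted p under 0.05 in edgeR. No member had groups that did not overlap in CPM, which 0.628% of all tested genes had.

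**Figure D4:**
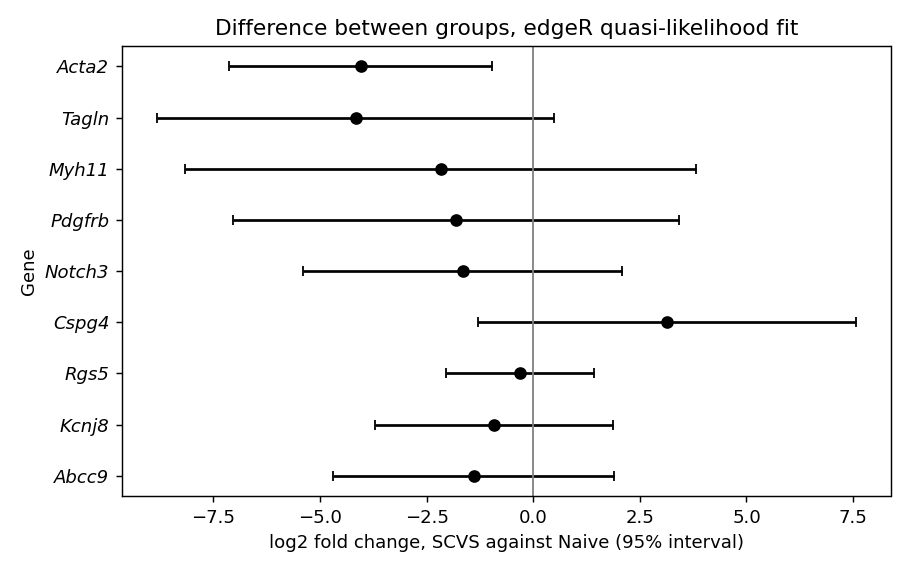
Log2 fold change of the 9 tested genes, SCVS against naive, in edgeR's quasi-likelihood fit. Bars show the 95% interval from a standard error derived from the test statistic and the fit's degrees of freedom. The interval of Acta2 runs from −7.13 to −0.96, before adjustment over the 14815 tested genes, and the intervals of the other 8 genes include 0.

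Acta2, Tagln, Myh11 and Des encode parts of the contractile and cytoskeletal machinery. Acta2 (ENSMUSG00000035783, GRCm38.p6 chromosome 19, 34240336 to 34255585) encodes smooth muscle alpha actin, the main actin of contractile mural cells. Its counts in naive replicates 1 to 5 were 15898, 6459, 670, 201 and 276, and in SCVS replicates 1 to 5 they were 1194, 172, 250, 21 and 151. Naive replicates 1 and 2 lay above every SCVS library, and the other 3 naive libraries lay within the SCVS range. The mean was 423 ± 650 CPM in naive and 27.2 ± 32.9 CPM in SCVS pools (± SD, 5 pools each), or a log2 fold change of −4.04 ± 1.41 (standard error, edgeR quasi-likelihood adjusted p = 0.964). In CPM the difference was within the spread of the libraries (exact permutation test, two-sided, p = 0.19), and the same exact test gave p = 0.0476 without SCVS replicate 1 and p = 0.381 without Naive replicate 1. DESeq2 with default settings gave Acta2 an adjusted p of 0.06. Naive replicate 1, the library without Prox1 or Pdpn counts, held 72.1% of the summed naive CPM of Acta2. Without it the naive mean was 147.3 CPM, 5.42 times the SCVS mean in place of 15.6 times, and the log2 fold change in edgeR was −2.45. When each library was left out in turn, DESeq2 called Acta2 in 4 of 10 runs. It lost the call without any 1 of SCVS replicates 2 to 5, with adjusted p between 0.131 and 0.167 in DESeq2, and gave no adjusted p without Naive replicate 1 or 2.

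Serum response factor is known to drive smooth muscle genes by binding CArG boxes, elements of 10 letters with a pair of C, 6 letters that are each A or T, and a pair of G. The 250 bases before the annotated start were searched on both strands in the 7 members with an entry in the RefSeq promoter table (GRCm38.p6). The entries for Tagln, Myh11 and Pdgfrb were missing. An exact CArG box stood in none of the 7, against 1.47% of 32851 promoters of the same length. A search that allows 1 letter off, added after this result, found matches in Acta2, Cspg4 and Kcnj8, against 17.5% of all promoters, and 2 separate matches in Acta2. At least 2 matches, overlapping ones included, stood in Acta2 and Cspg4, against 2.69% of all promoters. Distances are counted from the start used in that table, which for Acta2 is base 34255373, inside the gene span given above that ends at 34255585, so both Acta2 windows lie within that span. For Kcnj8 and Cspg4 the start is the first transcribed base of the gene span given with each gene. The 30 bases around each match are shown because Acta2 is the member with the smallest p, with the CArG-like letters in capitals, read 5′ to 3′ on the strand of the gene.
Acta2, chr19:34255438-34255467, minus strand, match 84 to 75 bases before that start: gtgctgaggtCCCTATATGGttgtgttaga
Acta2, chr19:34255388-34255417, minus strand, match 34 to 25 bases before that start: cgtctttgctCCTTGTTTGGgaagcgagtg
Kcnj8, chr6:142571641-142571670, minus strand, match 46 to 37 bases before the start: gagcagcgagCCTTTTAAAGatgtgtgtgc
Cspg4, chr9:56864856-56864885, plus strand, overlapping matches 238 to 228 bases before the start: tgtcccaaacCCTTAAAATGGggcatgggt
These matches describe letters in the reference genome and not binding. The motif GTGGGAA, which contains the core read by the Notch partner RBPJ, stood on either strand in none of the 7 windows, against 5.42% of all promoters. TATAAA, the letters of a TATA box, also stood in none of them, against 12.4%.

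Actin genes share much of their coding sequence, and the reads were 150 bases long before trimming. How far reads were split between these genes was not tested. The coding sequence of Acta2 was identical at 84.2% of aligned positions with Actg2, 85.4% with Acta1, 82.5% with Actc1, 82.8% with Actb and 78.1% with Actg1, and the longest identical stretch was 56 bases, shared with Actg1. Actg2, the other smooth muscle actin, had 910 and 52 counts in Naive replicates 1 and 2, 18 in SCVS replicate 2 and 0 or 1 in the other 7 libraries. Its log2 fold change was −6.15 (standard error 3.07; adjusted p = 1.0 by edgeR quasi-likelihood). The cytoplasmic actins Actb (4091 ± 1559 CPM in naive, 4364 ± 1771 CPM in SCVS) and Actg1 (961.8 ± 370.8 CPM in naive, 913.8 ± 258.5 CPM in SCVS, ± SD over 5 pools each) had log2 fold changes of 0.04 and −0.14 (standard errors 0.38 and 0.31; adjusted p = 1.0 in edgeR for both). The cardiac actin Actc1 was above 3 counts in Naive replicate 1 (232 counts) and SCVS replicate 5 (52 counts), and the skeletal actin Acta1 in Naive replicate 2 (47 counts) and SCVS replicate 4 (15 counts).

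Tagln (ENSMUSG00000032085, chromosome 9, 45929628 to 45936058) encodes transgelin, an actin-binding protein of smooth muscle, and Pcsk7 overlaps it on the opposite strand. Counts of Tagln were 2206, 687, 72, 33 and 0 across naive replicates 1 to 5 and 43, 0, 0, 103 and 48 across SCVS replicates 1 to 5. As for Acta2, Naive replicates 1 and 2 stood above every other library. In Naive replicates 1 to 4 there were between 6.09 and 9.4 Acta2 counts for each Tagln count, whereas SCVS replicate 1 had 27.8, SCVS replicate 5 had 3.15 and SCVS replicate 4 had 0.204. The mean was 54.6 ± 90.6 CPM in naive and 3.13 ± 3.32 CPM in SCVS pools (± SD, 5 pools each), or a log2 fold change of −4.16 ± 2.13 (standard error, edgeR quasi-likelihood adjusted p = 1.0). Without Naive replicate 1, which held 77.5% of the summed naive CPM, the log2 fold change was −2.26.

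Myh11 (ENSMUSG00000018830, chromosome 16, 14194527 to 14292188), the smooth muscle myosin heavy chain and a specific contractile marker of mature smooth muscle, was above 3 counts in 4 libraries. Naive replicates 1 and 2 had 64 and 608 counts, SCVS replicates 2 and 3 had 148 and 14 counts, and the other 6 libraries had 0. Its mean was 10.8 ± 20.8 CPM in naive and 2.66 ± 5.33 CPM in SCVS pools (± SD, 5 pools each). The log2 fold change of −2.17 ± 2.73 (standard error, edgeR quasi-likelihood adjusted p = 1.0) became 0.55 without Naive replicate 2 and −5.16 without SCVS replicate 2. Des (ENSMUSG00000026208, chromosome 1, 75360292 to 75368579) encodes desmin, the intermediate filament of muscle and of many pericytes, and Gm15179 overlaps it on the opposite strand. Naive replicates 2 and 4 had 269 and 121 counts, SCVS replicates 1 and 4 had 5 and 3 counts, and the other 6 libraries had 0. The means of Des were 6 ± 9.27 CPM in naive and 0.116 ± 0.166 CPM in SCVS pools (± SD, 5 pools each), within the spread of the libraries (exact permutation test, two-sided, p = 0.444). Desmin is also made by skeletal muscle. Of 16 skeletal muscle markers, Ckm, Myh1, Tnnt3, Myl1, Tcap and Myod1 did not exceed 3 counts in any library, and the 16 summed to 6.19 to 53 CPM in naive and 2.7 to 29.5 CPM in SCVS libraries.

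Pdgfrb, Notch3 and Cspg4 encode surface proteins that pericytes carry. Pdgfrb (ENSMUSG00000024620, chromosome 18, 61045127 to 61085067), the receptor for the endothelial ligand PDGF-B, had 1304, 68, 607, 0 and 0 counts across naive replicates 1 to 5 and 78, 1, 0, 0 and 457 counts in SCVS replicates 1 to 5. It was thus above 3 counts in 3 naive and 2 SCVS libraries. The means were 34.8 ± 53.7 and 10.3 ± 20 CPM (SD, n = 5 each), with a log2 fold change of −1.81 ± 2.39 (standard error, edgeR quasi-likelihood adjusted p = 1.0) that became 1.64 with a covariate for how many genes a library detected. It was −0.28 without Naive replicate 1 and −4.71 without SCVS replicate 5. Notch3 (ENSMUSG00000038146, chromosome 17, 32120820 to 32166896), the Notch receptor typical of mural cells, which Gm17276 overlaps on the opposite strand, had 1269, 88, 290, 140 and 0 counts in the naive and 2, 190, 6, 139 and 275 counts in the SCVS replicates. Naive replicate 1 held 76.2% of its summed naive CPM, and the log2 fold change of −1.65 ± 1.71 (standard error, edgeR quasi-likelihood adjusted p = 1.0) became 0.15 without that library. Fibroblasts also express Pdgfrb, and a list of 12 fibroblast markers, among them Col1a2 and Dcn, summed to 102.9 to 2515 CPM in naive and 237.1 to 2026 CPM in SCVS libraries. The part of these cells in the Pdgfrb counts was not tested.

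Cspg4 (ENSMUSG00000032911, chromosome 9, 56865104 to 56899870) encodes the proteoglycan NG2, a classical pericyte antigen, and was the only member with a log2 fold change above 0 in edgeR with all 10 libraries. Its counts in naive replicates 1 to 5 were 0, 36, 1, 3 and 0, and in SCVS replicates 1 to 5 they were 15, 96, 1, 30 and 166. It was above 3 counts in 1 naive and 4 SCVS libraries, and the groups overlapped through Naive replicate 2 and SCVS replicate 3. The mean was 0.622 ± 1.23 CPM in naive and 5.58 ± 6.87 CPM in SCVS pools (± SD, 5 pools each), or a log2 fold change of 3.13 with a 95% interval from −1.30 to 7.56 (standard error 2.02; adjusted p = 1.0 by edgeR quasi-likelihood). In CPM this difference did not exceed the spread of the libraries (exact permutation test, two-sided, p = 0.103), and the unadjusted p was 0.0317 without Naive replicate 2 and 0.0476 without SCVS replicate 3 (exact permutation tests). Over all alternatives of the exact permutation test the p for Cspg4 ran from 0.0317 to 0.206. The direction was the same in all 20 alternatives run for the fit. The log2 fold change was 6.03 without Naive replicate 2 and 2.08 without SCVS replicate 5. The latter library held 53.6% of the Cspg4 CPM summed over all 10 libraries.

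Rgs5 (ENSMUSG00000026678, chromosome 1, 169655501 to 169695813), a GTPase-activating protein that dampens G-protein signaling and is used as a pericyte marker, had 59024, 5448, 9402, 48714 and 67407 counts in the naive and 14238, 70747, 39561, 39691 and 3236 counts in the SCVS replicates. It took up between 0.0324% and 0.581% of all counts of a library. High and low libraries occurred in both groups, and the means of 3082 ± 2433 and 2671 ± 2152 CPM (SD, n = 5 each) differed by less than their spread (exact permutation test, two-sided, p = 0.802). The log2 fold change was −0.30 (95% interval −2.04 to 1.44; standard error 0.79; adjusted p = 1.0 by edgeR quasi-likelihood), and it was 0.068 without Naive replicate 1 and 0.061 in limma with voom. Libraries high in Rgs5 were not always high in the other mural genes. Naive replicate 5, with 67407 Rgs5 counts, had 0 counts of Pdgfrb, Notch3, Cspg4, Abcc9 and Tagln and 1 count of Kcnj8. SCVS replicate 5, with 3236 Rgs5 counts, the lowest of all, had the highest SCVS counts of Pdgfrb, Notch3 and Cspg4. For each Acta2 count there were 0.843 Rgs5 counts in Naive replicate 2 and 1890 in SCVS replicate 4.

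Kcnj8 and Abcc9 encode the pore (Kir6.1) and the regulatory subunit (SUR2) of the ATP-sensitive potassium channel of vascular mural cells, and are neighbours on chromosome 6. Kcnj8 (ENSMUSG00000030247, 142564837 to 142571614) had 1548, 2280, 10, 1241 and 1 counts in the naive and 546, 823, 421, 855 and 235 counts in the SCVS replicates. All SCVS libraries were above the floor and lay between 23.5 and 67.6 CPM, whereas the naive libraries fell into 3 that were higher (91.4 to 178.5 CPM) and 2 that were lower (0.075 and 0.716 CPM) than every SCVS library. The SD was 82.4 CPM around a mean of 83.9 CPM in naive mice and 19.4 CPM around a mean of 45.7 CPM in SCVS mice (n = 5 each). The log2 fold change of −0.93 ± 1.27 (standard error, edgeR quasi-likelihood adjusted p = 1.0) changed sign to 2.03 in limma with voom, which works on log values. Abcc9 (ENSMUSG00000030249, 142587862 to 142702766), overlapped by 5330439B14Rik on the opposite strand, had 71, 234, 456, 1075 and 0 counts in the naive and 163, 120, 334, 41 and 9 counts in the SCVS replicates. Its means of 27.4 ± 31.5 and 10.5 ± 10.3 CPM (SD, n = 5 each) gave a log2 fold change of −1.39 ± 1.5 (standard error, edgeR quasi-likelihood adjusted p = 1.0), which was −0.50 without Naive replicate 4 and −0.10 in limma with voom. Both subunits were above 3 counts in 9 of the 10 libraries, the exception being Naive replicate 5, where both were at or under the floor. The ratio of Kcnj8 to Abcc9 counts ran from 0.0219 in Naive replicate 3 to 26.1 in SCVS replicate 5. The subunits of the pancreatic form of the channel were scarce. Kcnj11 had 14 and 86 counts in SCVS replicates 4 and 5 and 0 elsewhere, and Abcc8 had at most 36 counts in any library.

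Counts of 0 beside high counts within a group were common. Among the members, Tagln, Myh11, Pdgfrb, Abcc9, Notch3 and Des had 0 counts in one naive library and at least 100 in another, and Tagln, Myh11 and Pdgfrb did so among the SCVS libraries. The same held for 34.8% of all tested genes in naive and 32.5% in SCVS libraries.

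The 45 pairs of members were compared across the 10 libraries on the scale of log2(CPM + 1). The median Pearson's r was 0.172, 29 pairs were above 0, and no pair passed an adjusted p of 0.1 over the 45 pairs (smallest 0.439 for Pearson's r and 0.736 for Spearman's rho, permutation tests with 100000 resamples). Acta2 and Tagln had the highest r, 0.739 (permutation p = 0.0173, adjusted 0.439; Spearman's rho 0.46, permutation p = 0.184, adjusted 0.934). Without the 2 libraries farthest from the median of Acta2 the r was −0.18, so the relation rests on those libraries. Kcnj8 and Abcc9 had an r of 0.341 (permutation p = 0.335, adjusted 0.828; rho 0.285, permutation p = 0.424, adjusted 0.961; r without the 2 farthest libraries 0.361). Rgs5 and Pdgfrb had the lowest r, −0.475 (permutation p = 0.166, adjusted 0.623; rho −0.306, permutation p = 0.384, adjusted 0.961; r without the 2 farthest libraries −0.85). The 5 tested genes whose log2(CPM + 1) was most like the mean of the members over the 10 libraries were Micall1 (r = 0.914), Gm13077 (0.905), Gpc3 (0.887), Gm5127 (0.88) and Col6a2 (0.878). They are the highest of all tested genes and are given as a description without a p.

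By edgeR quasi-likelihood, no other gene of the mural program passed an adjusted p of 0.1 either. Of 19 further contractile genes 18 were tested, 15 had a log2 fold change below 0 and 3 above, with a median of −0.56. Myl6 and Cald1, a myosin light chain and an actin-binding regulator of contraction, were the most abundant in CPM and had log2 fold changes of −0.21 and −0.05 (standard errors 0.23 and 0.45). The smallest unadjusted p for a lower level was that of Actg2, given above, and for a higher level that of Smtn (log2 fold change 1.03, standard error 0.74). Of 13 transcription factors listed for the mural program 10 were tested, 7 with a log2 fold change below 0 and 3 above, with a median of −0.71. Foxc1 of this list is also in the fibroblast list. The part of cells other than mural cells in the counts of these factors was not tested. Myocd, a coactivator of smooth muscle genes, had 7 counts in 1 SCVS library and 0 in the other 9. Ebf1, a factor of pericyte and stromal commitment, had 202.7 ± 80 CPM in naive and 91.3 ± 23.3 CPM in SCVS pools (± SD, 5 pools each), or a log2 fold change of −1.19 ± 0.39 (standard error, edgeR quasi-likelihood adjusted p = 0.964, DESeq2 adjusted p = 0.297), and its groups overlapped. Mef2c and Mrtfb were the most abundant of these factors, with log2 fold changes of 0.30 and −0.65 (standard errors 0.42 and 0.43).

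Of 22 further pericyte-enriched genes 20 were tested, 13 with a log2 fold change below 0 and 7 above, with a median of −0.52. Vtn, vitronectin, had 6610, 2715, 4544, 195 and 296 counts across naive replicates 1 to 5 and 929, 15, 250, 412 and 1326 counts in SCVS replicates 1 to 5, so that Naive replicates 1 to 3 lay above every SCVS library (log2 fold change −2.30, standard error 1.16; adjusted p = 1.0 by edgeR quasi-likelihood). Mcam and Higd1b had log2 fold changes of 0.85 and 3.09 (standard errors 1.14 and 2.72). Of 28 ligands and receptors of mural cell recruitment 27 were tested, 13 with a log2 fold change below 0 and 14 above, with a median of 0.07. Pdgfb, the endothelial ligand of Pdgfrb, was present in every library, with 143.7 ± 76.2 CPM in naive and 157.3 ± 101.6 CPM in SCVS pools (± SD, 5 pools each). Eng and S1pr1, both endothelial receptors, were the most abundant, with log2 fold changes of −0.39 and 0.24 (standard errors 0.53 and 0.39). Pdgfc, a ligand of the related receptor Pdgfra, had 4 counts in Naive replicate 4 and 0 in the other naive libraries, and 0, 20, 225, 413 and 135 counts in SCVS replicates 1 to 5 (adjusted p = 0.964 by edgeR quasi-likelihood, 0.0494 by DESeq2). Jag1, a Notch ligand, had 40.5 ± 20 CPM in naive and 17.1 ± 4.02 CPM in SCVS pools (± SD, 5 pools each; adjusted p = 1.0 by edgeR quasi-likelihood). A list of 8 genes, all tested, held intermediate filament genes, partners of desmin and Synpo, which is neither. Of these 8, 5 had a log2 fold change below 0 and 3 above, with a median of −0.35. Vim and Plec were the most abundant, with log2 fold changes of −0.73 and −0.48 (standard errors 0.43 and 1.02). Dst and Synpo had the smallest unadjusted p for a lower and a higher level, with log2 fold changes of −1.05 and 0.75 (standard errors 0.41 and 0.57). Without Naive replicate 1 the median log2 fold change was −0.21 for the contractile list, −0.12 for the transcription factors and −0.21 for the pericyte list.

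Markers of other cell types that the sort could hold were read beside the mural genes. In the 9 lists, edgeR's quasi-likelihood test called no gene. The median log2 fold change was 0.82 for the 9 lymphatic endothelial genes, −0.10 for 8 blood endothelial genes, 0.02 for 8 genes of all endothelium, −0.47 for 11 tested fibroblast genes, 2.81 for 8 tested myeloid genes, 6.02 for 5 erythroid genes, −0.26 for 5 tested Schwann and glial genes, −0.27 for 6 tested arachnoid and bone genes and −0.28 for 3 tested skeletal muscle genes. DESeq2 called 1 of the 8 tested myeloid genes, Ptprc, which encodes CD45 (DESeq2 adjusted p = 0.0801), where it called 0.769% of all tested genes. The Ptprc counts were 1, 0, 1, 1 and 0 in naive replicates 1 to 5. In SCVS replicates 1 to 5 they were 27, 0, 0, 113 and 404. DESeq2 called none of the other genes in these lists to which it gave an adjusted p. It gave no adjusted p to the erythroid genes Hba-a1, Hba-a2, Hbb-bs and Hbb-bt and to the fibroblast gene Pdgfra. The highest of these medians moved with single libraries, over fewer genes that stayed testable. The myeloid median was 0.98 over 6 genes without SCVS replicate 4, with 0 of them below 0, and 6.38 over 7 genes without Naive replicate 4. The erythroid median was 0.99 over 4 genes without SCVS replicate 5, with 1 of them below 0. The lymphatic median was −0.0054 without SCVS replicate 3, and the fibroblast median 0.0059 without Naive replicate 2. The summed levels ranged from 595 to 8187 CPM in naive and 4253 to 7652 CPM in SCVS libraries for the genes of all endothelium, from 3.26 to 671.2 and 178.2 to 4517 CPM for the myeloid genes, from 4.32 to 46.7 and 10.9 to 4863 CPM for the erythroid genes, from 395.3 to 1657 and 207.6 to 1311 CPM for the Schwann and glial genes, and from 147.3 to 480.1 and 129.3 to 458.6 CPM for the arachnoid and bone genes. Among the fibroblast genes, Mgp and Dcn were the most abundant in CPM (log2 fold changes −0.36 and 0.18), and Col1a2 and Slc47a1 had the smallest unadjusted p for a lower and a higher level (−2.70 and 2.21, standard errors 0.96 and 1.74). Among the skeletal muscle genes, Mylpf, Myh7 and Atp2a1 were tested, with log2 fold changes of −0.28, −3.27 and 2.75 (standard errors 1.85, 2.15 and 2.08). The 12 fibroblast markers summed to 1289 and 2515 CPM in Naive replicates 1 and 2, the libraries with the most Acta2 and Tagln, and to 2026 CPM in SCVS replicate 5, where Acta2 was at 15.1 CPM and Pdgfrb at 45.8 CPM. The part of these other cells in the mural gene counts was not tested.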

How the data were processed

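RNA of sorted meningeal LECs from 5 naive and 5 SCVS pools of female mice was analysed. The authors amplified the RNA, trimmed and quality-filtered the reads, and aligned them with HISAT2 2.0.1. The study's methods name the mm9 genome, whereas the submitters' processing notes name GRCm38, with cutadapt 1.9.1 and HTSeq 0.6.1. The strand setting of the counting is not given in the sources used here. The deposited values are raw counts per gene and library, with no normalization. Of the 55401 identifiers, 58.8% are in the mm9 annotation GENCODE M1. Gene positions and promoters are therefore those of RefSeq on GRCm38.p6 (10 of 10 members found), and GENCODE M1 gave exon lengths and actin coding sequences.

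Groups were taken from the sample titles. Pools are separate samples, and p-values measure the spread between them. The study used at least 2 cohorts, and which library came from which is not given in the sources used here. The 14815 genes that exceeded 5 counts in 3 or more libraries were tested with edgeR 4.0.16 in R 4.3.3 (quasi-likelihood test, TMM, Benjamini-Hochberg adjustment, threshold 0.1). For each member, CPM were set against each other in an exact permutation test (two-sided, 5 against 5), whose smallest possible p is 0.00794. Alternatives were DESeq2 1.42.0, limma 3.58.1 with voom, edgeR's likelihood ratio test, other scalings and filters, the replicate number as a block, a covariate for how many genes a library detected, and leaving out each library. DESeq2 with each library left out, and the gene lists with each library left out, were added after the data had been seen. Simulated counts were used to test the fits. The members and gene lists were chosen with earlier results of these data known. From each further list, the text names the 2 genes with the highest mean CPM and, in each direction, the gene with the smallest p, while the other cell type lists, for which the rule also held, are given by their medians and sums. Pdgfb, Myocd and the skeletal genes at the floor were named after their values were seen. Python 3.11.15, NumPy 2.4.6, SciPy 1.17.1 and Matplotlib 3.10.9 were used.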

Additional observations from a re-analysis of the deposited data

Results flagged for a closer look

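Of 20 sets of 5 libraries (10 genes in each group), 7 had a library far from the other 4, where a gap to the nearest library above 0.71 of the group's range in CPM was taken as far, and chance gives about 1 in 20 for evenly spread values. Over all tested genes, 22.3% of 29502 such sets had a library this far from the others. In the naive group these were Tagln in replicate 1 (211.7 CPM), Notch3 in replicate 1 (121.8 CPM), Myh11 in replicate 2 (47.6 CPM) and Cspg4 in replicate 2 (2.82 CPM). In the SCVS group they were Acta2 in replicate 1 (84.7 CPM), Myh11 in replicate 2 (12.2 CPM) and Pdgfrb in replicate 5 (45.8 CPM). All 7 were the highest library of their group.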

How the results depend on the processing

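No gene and no member was called by edgeR's quasi-likelihood test under any alternative scaling or filter, with the covariate, or with any 1 library left out (0 to 0 genes and 0 to 0 members). Over all tested genes DESeq2 called 114, edgeR's likelihood ratio test 38 and limma with voom 2, and of the members DESeq2 called 1, Acta2. At an unadjusted p under 0.05 edgeR's quasi-likelihood test gave 460 genes, DESeq2 661 and limma with voom 736. The number of genes called by DESeq2 was 98 to 214 with each library left out. With the replicate number as a block, edgeR called 0 genes and 0 members, and 266 genes had an unadjusted p under 0.05. Between same-numbered pools, the correlation of deviations from the group means lay between −0.0169 and 0.149. For 4 of the 5 naive libraries, the SCVS library with the highest such correlation carried the same number. Whether same-numbered pools share a batch was not tested. The log2 fold change of Kcnj8 became 0.89 with this block and 2.03 in limma with voom, and its difference became 1.02 on the log2(CPM + 1) scale and 1.73 on the log2(CPM + 0.1) scale, both without passing the exact test. That of Pdgfrb became 1.64 with the covariate, and that of Rgs5 0.061 in limma with voom. With single libraries left out, log2 fold changes lay between −5.16 and 0.55 for Myh11, −0.71 and 0.068 for Rgs5 and −2.40 and 0.15 for Notch3, and DESeq2 gave 0.20 for Notch3 without Naive replicate 1 and 0.53 for Myh11 without Naive replicate 2. In mean CPM, SCVS minus naive, the difference was above 0 without Naive replicate 2 for Myh11 (1.12), without Naive replicate 1 for Notch3 (1.37), and for Rgs5 without Naive replicate 1 (234.7), Naive replicate 5 (83), SCVS replicate 1 (4.44) or SCVS replicate 5 (176). These differences ranged from −10.8 to 1.12 CPM for Myh11, −1196 to 234.7 CPM for Rgs5 and −29.1 to 1.37 CPM for Notch3 with single libraries left out. The cause of these changes was not tested beyond the libraries named. Acta2, Tagln and Abcc9 stayed below 0 and Cspg4 above 0 in all 20 alternatives of the fit. No pair of members passed with a pseudocount of 0.1 (0 pairs). Counts lay at or under the floor of 3 in 5 of 10 libraries for both Cspg4 and Pdgfrb, 7 for Des and 6 for Myh11, which limits the values of these genes. The cause of these low counts was not tested.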
